A study of Mus musculus with 21 samples.

Results

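Collagen genes were followed in 12 mammary tumours of MMTV-PyMT mice. The members were the genes whose symbol is Col, a number, a and a number, and 43 of the 19241 genes in the tumour tables had such a symbol. By textbook class, 11 were fibrillar collagens, 8 were collagens of the basement membrane (types IV, XV and XVIII), and 24 were other collagens. The tumours fell into 4 groups of 3: sedentary mice at week 12, physically active mice at week 12, sedentary mice at week 18 and physically active mice at week 18. All 4 groups carried the MMTV-PyMT transgene, in which a viral promoter active mainly in mammary epithelium drives the polyoma middle T oncogene. No tumour-free tissue was analysed here. The labels number the samples of a group as biological replicates, and do not give the form of activity, whether the weeks are ages, or whether replicates came from separate mice. The p-values therefore measure the spread between these tumours.

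Collagens are secreted proteins built from 3 chains wound into a triple helix, and they make up much of the extracellular matrix. Fibrillar collagens such as types I and III assemble into the fibres that stiffen stroma and are made mainly by fibroblasts. Type IV forms the sheet-like network of basement membranes under epithelium and around vessels and fat cells, and types XV and XVIII sit at the border of that network with the stroma. The remaining types coat fibrils, form beaded filaments, anchor epithelium to the stroma or span the cell membrane. In mammary tumours, collagen is known for its part in tissue stiffness and in the path of invading cells.

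Values are normalized counts, that is, the reads of a gene divided by the authors' scaling factor for the library. The recovered libraries held 20838963 to 28973775 reads. One tumour stood apart in its marker genes. Active week 12 replicate 3 had summed normalized counts of 6958 over 5 T cell markers and 14039 over 4 B cell markers, against at most 297 and 95.9 in the other tumours. Its 8 adipocyte markers summed to 218322, against 1395 to 46492 elsewhere, and its 4 luminal epithelial markers to 44116, against 49340 to 104387. Active week 18 replicate 1 and sedentary week 18 replicate 1 had the lowest fibroblast sums, 2319 and 3970, against 6421 to 36540 in the others. The 8 skeletal muscle markers summed to 52928 to 114089 in sedentary tumours of week 12 and to 290 to 15085 in the other groups. The part of these cells in the collagen values was not tested. In bulk tumours, fewer cells of a type and less RNA per cell cannot be told apart.

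All 43 collagen genes passed the filter on low values in each of the 6 comparisons, and 35 had over 10 reads in every tumour. Per kilobase of transcript, averaged over the 12 tumours, Col3a1 had the highest level at 5363 normalized counts per kilobase. Col1a1 (3521) and Col1a2 (3516), the chains of type I collagen, came next and were level with each other. The basement membrane chains Col4a1 (2456) and Col4a2 (1700) followed. Of the other collagens, Col9a1 (1531), Col6a1 (1307), Col6a2 (1071) and Col9a2 (984) were highest, and the fibrillar Col11a1 stood among them at 1069. Col22a1 was lowest, at 0.27 per kilobase.

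Collagen genes spread more between tumours than most genes. Over the 12 tumours the median SD of log2(normalized count + 1) was 0.87 for the 42 members with a mean of at least 10, and 0.38 for all 16462 such genes. By class this median SD was 0.92 in fibrillar, 0.69 in basement membrane and 0.91 in other collagens. Active week 12 replicate 3 was the highest tumour for 10 of the 42 members and the lowest for 11, against 25.1% and 21.9% of all genes. Active week 18 replicate 1 was highest for 7 and lowest for 10, against 18.1% and 16.8%. Sedentary week 18 replicate 1 was highest for 8 and lowest for 7, against 13.5% and 17.3%.

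**Figure D1:**
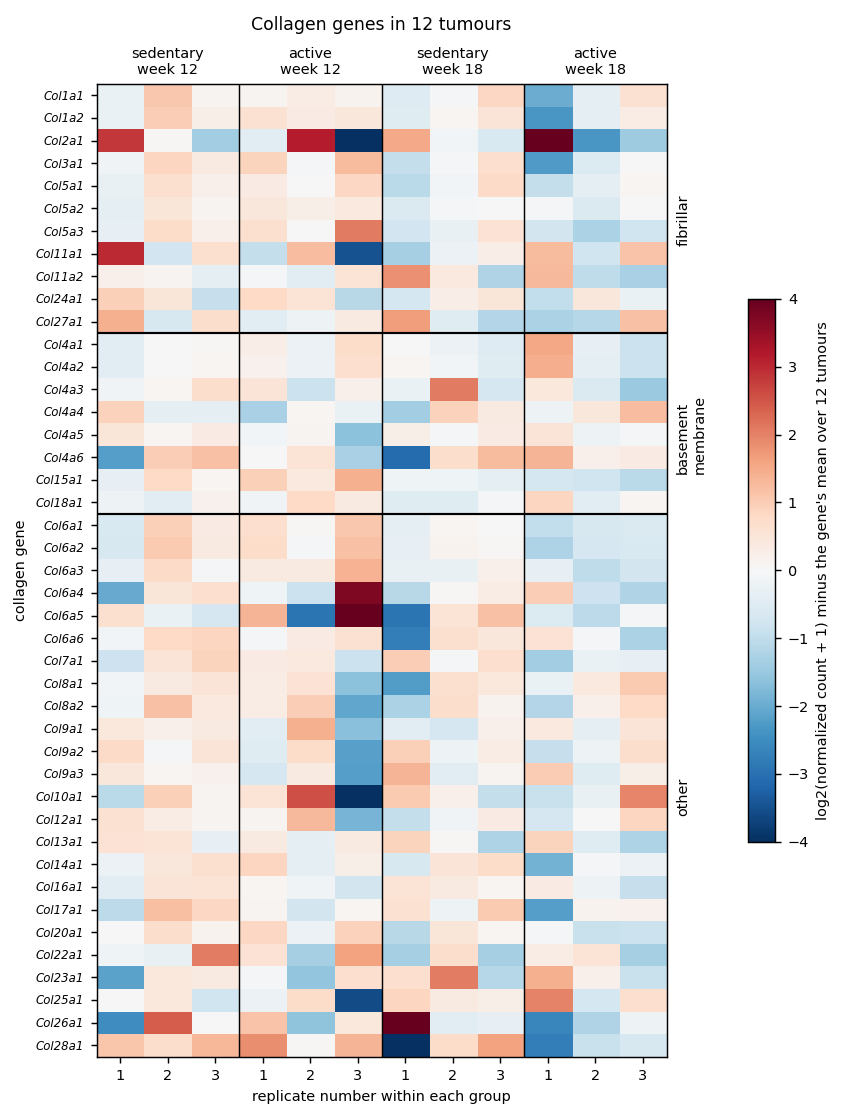
Each row is a collagen gene and each column a tumour, and the colour is log2(normalized count + 1) minus the gene's mean over the 12 tumours, with colours ending at 4 in either direction. Single tumours stand out within groups, such as active week 18 replicate 1, where the type I and III chains were low while Col4a1 and Col4a2 were high.

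Collagen transcripts made up 4.46 to 9.60 of every 1000 reads. The share was 6.45, 9.60 and 7.19 in sedentary tumours of week 12 and 8.06, 7.10 and 8.61 in active tumours of week 12. It was 5.08, 5.84 and 7.49 in sedentary and 5.73, 4.46 and 5.94 in active tumours of week 18. The active groups did not overlap between weeks, while the sedentary groups did. Fibrillar collagens contributed 1.36 to 4.01 times the reads of the basement membrane collagens in 11 tumours. In active week 18 replicate 1 this ratio was 0.38, and Col1a1, Col1a2 and Col3a1 together held 8.97% of its collagen reads, against 32.5% to 52.6% in the others.

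**Figure D2:**
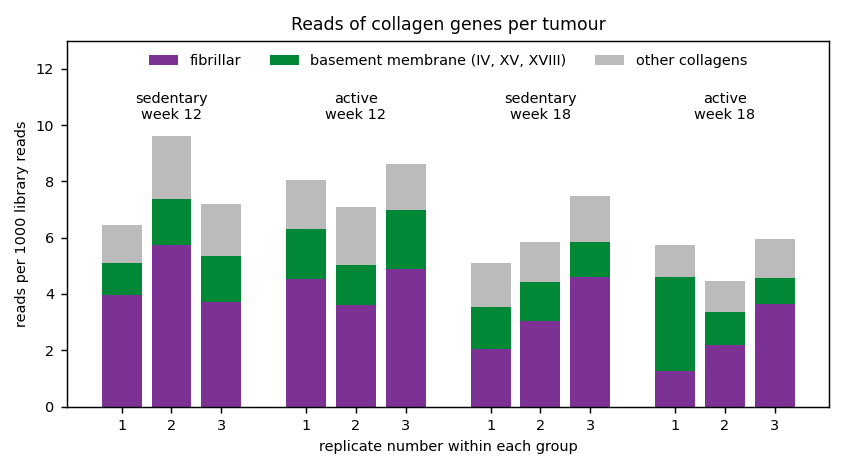
Bars give the reads of collagen genes per 1000 reads of the library in each tumour, stacked by class. Totals run from 4.46 to 9.60, and in active week 18 replicate 1 the basement membrane part exceeds the fibrillar part.

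Upstream sequences are shown for 1 fibrillar chain with high levels (Col3a1) and for 3 members with lower values at week 18 in active tumours. The 3 were Col15a1, Col6a3 and Col5a3. None of these genes passed the limma test described below, and Col6a1 and Col6a2, also lower there, are not printed. The sequences are the 150 bases before the RefSeq start in GRCm38.p6, written 5′ to 3′ on the gene's strand. Matches to the searched motifs are in capitals. Col3a1 lies at chr1:45311388-45311537 on the plus strand and Col15a1 at chr4:47207862-47208011 on the plus strand. Col6a3 lies at chr1:90843972-90844121 and Col5a3 at chr9:20815068-20815217, both on the minus strand.
Col3a1: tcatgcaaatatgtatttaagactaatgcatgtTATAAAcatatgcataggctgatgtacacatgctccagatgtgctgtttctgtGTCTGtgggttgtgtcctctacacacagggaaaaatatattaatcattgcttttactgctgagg
Col15a1: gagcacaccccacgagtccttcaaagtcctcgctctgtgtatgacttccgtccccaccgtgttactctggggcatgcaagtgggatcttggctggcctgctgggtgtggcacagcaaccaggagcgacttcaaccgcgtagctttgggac
Col6a3: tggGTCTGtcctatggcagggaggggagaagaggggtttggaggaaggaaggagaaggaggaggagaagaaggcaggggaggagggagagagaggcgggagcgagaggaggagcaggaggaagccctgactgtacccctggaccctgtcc
Col5a3: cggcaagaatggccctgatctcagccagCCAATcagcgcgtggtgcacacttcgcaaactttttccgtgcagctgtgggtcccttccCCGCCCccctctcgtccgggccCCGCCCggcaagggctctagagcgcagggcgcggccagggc
The Col3a1 stretch holds TATAAA and GTCTG, that of Col6a3 holds GTCTG, and that of Col5a3 holds CCAAT and CCGCCC at 2 places. None of the searched letters is in the Col15a1 stretch. Over the 250 bases before the start, 34 of the 43 members matched the RefSeq table, with 37 starts. The GC box GGGCGG, on either strand, was in 59.5% of these windows and in 32.7% of all 32851 windows. CCAAT was in 35.1% and 33.8%, TATAAA in 13.5% and 12.4%, and the Smad-binding letters CAGAC in 43.2% and 42.2%. A match describes letters and is not a measured binding site.

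Active and sedentary tumours were compared within each week, weeks were compared within each activity, and the activity effects of the weeks were compared with each other. Tests were limma on log2(normalized count + 1), with p-values adjusted over all genes by the Benjamini-Hochberg method and a threshold of 0.05. No collagen gene passed in any of these comparisons. The share of all genes that passed was 0.517% for activity at week 12, 0% for activity at week 18 and 0.0104% for the difference between these effects. It was 0.0052% between weeks in sedentary tumours, 0.0156% between weeks in active tumours and 0.0052% between weeks over both. At an unadjusted p under 0.05 stood 0, 4, 1, 0, 8 and 8 of the 43 members in that order, against 4.09%, 5.97%, 6.33%, 3.64%, 17.7% and 13.2% of all genes. edgeR on the recovered reads called 0 members in each, with 0.397% of all genes called for activity at week 12 and 0% elsewhere. DESeq2 called 0 members in the first 4 comparisons, where it called 1.09%, 0.275%, 0.904% and 0.411% of all genes. It called 5 between weeks in active tumours, with 8.74% of all genes, and 5 over both activities, with 3.75%.

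At week 12 no collagen gene passed the test between active and sedentary tumours, and no member had groups without overlap, against 4.36% of all genes wholly higher and 4.78% wholly lower. Median log2 fold changes, active over sedentary, were 0.06 for fibrillar, 0.03 for basement membrane and -0.22 for other collagens, beside 0.01 for all genes. Among members above 0 the smallest p-values were those of Col15a1, at 0.74 ± 0.40 (SE), and Col18a1, at 0.49 ± 0.30 (SE), the collagens whose fragments are known as restin and endostatin. Among members below 0 they were those of Col4a5, at -0.84 ± 0.50 (SE), and Col9a3, at -1.07 ± 0.66 (SE). All 4 had an adjusted p of 0.970 in limma. Without active week 12 replicate 3, the tumour that stood apart and the lowest for both, Col4a5 was -0.29 and Col9a3 -0.38, and Col9a3 was -1.67 without active week 12 replicate 2. Col15a1 was 0.49 without the tumour that stood apart and 0.49 without sedentary week 12 replicate 1, and Col18a1 was 0.26 without active week 12 replicate 2.

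At week 18, active tumours had lower mean log2 values than sedentary tumours in 29 of 43 members, none past the threshold. Fibrillar collagens had a median log2 fold change of -0.41 with 10 of 11 below 0, other collagens -0.23 with 16 of 24 below 0, and basement membrane collagens 0.31 with 3 of 8 below 0, beside 0.01 and 48.9% below 0 for all genes. Without active replicate 1 the fibrillar median was -0.08 and the basement membrane median -0.32. The active group lay wholly below the sedentary group for Col6a1, Col6a2, Col6a3, Col7a1 and Col15a1, 5 of 43 members, and wholly above for none. Of all genes 7.57% lay wholly below and 6.03% wholly above. The summed fibroblast markers at this week were 3970 to 13719 in sedentary and 2319 to 7212 in active tumours, and their part in these values was not tested. Adjusted p-values in the authors' deposited table at this week were 0.119 for Col15a1, 0.228 for Col6a2 and 0.291 for Col6a1, the smallest of the members.

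Type I and type III collagen form the bulk of stromal fibres. Week 12 tumours had Col1a1 values of 15456, 39370 and 19938 in sedentary and 20080, 22875 and 20739 in active mice. Those of week 18 had 13174, 18126 and 33203 in sedentary and 4672, 14577 and 28325 in active mice. The week 18 groups overlapped, with active replicate 1 the lowest of the 12 tumours. For Col1a2, sedentary tumours held 13930, 33014 and 19570 at week 12 and 11933, 17608 and 24057 at week 18. Active tumours held 25363, 20751 and 23007 at week 12 and 3291, 12660 and 20463 at week 18. Active tumours of week 18 were below all active tumours of week 12 by a narrow margin, and the sedentary groups overlapped.

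Col3a1 values were 23154, 45813 and 32185 in sedentary tumours of week 12 and 46704, 23967 and 60771 in active tumours of week 12. At week 18 they were 13190, 24082 and 39924 in sedentary and 5276, 17213 and 25821 in active tumours. The highest tumour was active week 12 replicate 3 and the lowest active week 18 replicate 1. Active over sedentary, the log2 fold changes at week 18 were -0.68 ± 0.74 (SE) for Col1a1, -0.86 ± 0.73 (SE) for Col1a2 and -0.81 ± 0.72 (SE) for Col3a1. These differences rested on 1 tumour: without active week 18 replicate 1 they were 0.03, -0.09 and -0.15.

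Col5a1, Col5a2 and Col5a3 encode chains of type V collagen, which sits inside type I fibrils and limits their width. Week 12 tumours had Col5a3 values of 989, 2053 and 1434 in sedentary and 1910, 1228 and 5243 in active mice. Those of week 18 had 729, 997 and 1849 in sedentary and 737, 508 and 704 in active mice. The active groups did not overlap between weeks, and active week 12 replicate 3 was highest. Col11a1, a chain of the fibrillar type XI best known from cartilage, had the widest range of the abundant collagens. For Col11a1, sedentary tumours held 37619, 2764 and 7415 at week 12 and 1882, 4045 and 5714 at week 18. Active tumours held 2464, 11224 and 420 at week 12 and 11506, 2707 and 10554 at week 18. Sedentary week 12 replicate 1 was the highest tumour and active week 12 replicate 3 the lowest, 89.5-fold apart. The activity effect on Col11a1 was -2.02 ± 1.51 (SE) at week 12 and 0.97 ± 0.71 (SE) at week 18, and their difference of 2.99 ± 1.78 (SE) had an adjusted p of 0.770 in limma. With 1 tumour left out the difference ran from 1.77, without active week 12 replicate 3, to 4.14, without active week 12 replicate 2.

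Col2a1, the main fibrillar chain of cartilage, reached 1541, 16.6 and 32.1 in active tumours of week 18 and 623, 89.6 and 32.7 in sedentary tumours of week 12. It was above 600 in sedentary week 12 replicate 1, active week 12 replicate 2 and active week 18 replicate 1. The 4 listed cartilage markers differed among these tumours. In these 3 tumours, in that order, Cnmd was 3254, 31.9 and 870, Comp was 42, 462 and 17.7, Acan was 62.4, 9.27 and 66.6, and Matn3 was 3.6, 10.3 and 4.16. In the other 9 tumours Cnmd was at most 141, Comp at most 333, Acan at most 34.5 and Matn3 at most 9.91. The part of cartilage in these values was not tested.

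Basement membrane collagens did not move as a block. Col4a1 and Col4a2 encode the chains of the most widespread type IV network. Col4a1 values were 10699, 14731 and 14980 in sedentary tumours of week 12 and 17746, 12477 and 24359 in active tumours of week 12. At week 18 they were 14901, 12399 and 10237 in sedentary and 42622, 11678 and 8090 in active tumours. Active week 18 replicate 1 was the highest tumour and active week 18 replicate 3 the lowest. Week 12 tumours had Col4a2 values of 7447, 10188 and 10686 in sedentary and 11399, 8462 and 15901 in active mice. Those of week 18 had 10617, 9188 and 7150 in sedentary and 27183, 7847 and 5503 in active mice. The highest and the lowest tumour were those of Col4a1. The week 18 activity effect was 0.36 ± 0.65 (SE) for Col4a1 and 0.25 ± 0.63 (SE) for Col4a2, and without active week 18 replicate 1 it was -0.35 and -0.43.

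The gene models of Col4a1 (chr8:11198423-11312826, minus strand) and Col4a2 (plus strand) meet head to head and overlap by 22 bases in the GRCm38 annotation. Col4a3 and Col4a4 on chromosome 1 and Col4a5 and Col4a6 on chromosome X are head-to-head pairs too. Col4a3 and Col4a4, chains known from kidney and lung, were low. Col4a3 ran from 9.8 to 126 and Col4a4 from 25.9 to 165 over the 12 tumours.

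For Col4a5, sedentary tumours held 5718, 4329 and 5148 at week 12 and 4868, 3990 and 5153 at week 18. Active tumours held 3829, 4419 and 1325 at week 12 and 5968, 3592 and 4032 at week 18. Active week 12 replicate 3 was the lowest tumour. Col4a6 values were 355, 3253 and 3745 in sedentary tumours of week 12 and 1635, 2398 and 671 in active tumours of week 12. At week 18 they were 196, 2710 and 3978 in sedentary and 4215, 1893 and 2076 in active tumours. Sedentary replicate 1 was the lowest at each week, and the highest tumour was 21.5-fold above the lowest. Col4a5 spanned 4.51-fold, so the chains of this pair did not keep 1 ratio. No type IV chain passed the test in any comparison, and the smallest limma adjusted p among them was 0.400, for Col4a5 between weeks in active tumours.

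Col15a1 encodes a collagen that links basement membranes to the stroma and carries the restin fragment. Week 12 tumours had Col15a1 values of 2092, 4492 and 2744 in sedentary and 5086, 3400 and 6946 in active mice. Those of week 18 had 2328, 2301 and 2022 in sedentary and 1604, 1508 and 1233 in active mice. At week 18 the highest active tumour lay below the lowest sedentary one, and in active tumours the weeks did not overlap. The week 18 activity effect was -0.62 ± 0.17 (SE), with a limma adjusted p of 0.824. In active tumours, week 18 over week 12 was -1.78 ± 0.31 (SE), limma adjusted p 0.157. In sedentary tumours it was -0.42 ± 0.31 (SE), and the difference between these, -1.36 ± 0.45 (SE), had a limma adjusted p of 0.647. Without active week 12 replicate 3 the effect in active tumours was -1.53, with a limma adjusted p of 0.272. Without active week 12 replicate 2 it was -2.05 and passed with a limma adjusted p of 0.0472, a setting that called 0.452% of all genes. DESeq2 gave -1.83 and an adjusted p of 8.78e-06.

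Type VI collagen forms beaded filaments around cells, and Col6a1, Col6a2 and Col6a3 encode its main chains. For Col6a1, sedentary tumours held 3203, 9444 and 6087 at week 12 and 3721, 5081 and 4929 at week 18. Active tumours held 7786, 5053 and 10186 at week 12 and 2438, 3111 and 3254 at week 18. Col6a2 values were 2828, 9219 and 5715 in sedentary tumours of week 12 and 7320, 4253 and 9893 in active tumours of week 12. At week 18 they were 3518, 4889 and 4596 in sedentary and 1897, 2790 and 2876 in active tumours. Active tumours of week 18 lay below the sedentary tumours of that week and below the active tumours of week 12 for both genes.

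Week 12 tumours had Col6a3 values of 3068, 6454 and 3687 in sedentary and 4959, 4892 and 9949 in active mice. Those of week 18 had 3093, 3095 and 4445 in sedentary and 3041, 1879 and 2323 in active mice. The same separation held, by a narrow margin at week 18, where the highest active tumour had 3041 and the lowest sedentary one 3093. At week 18 the activity effects were -0.64 ± 0.21 (SE), -0.79 ± 0.24 (SE) and -0.56 ± 0.26 (SE) for the 3 chains in that order. Each had a limma adjusted p of 0.824. Between weeks in active tumours they were -1.34 ± 0.39 (SE), -1.45 ± 0.44 (SE) and -1.39 ± 0.36 (SE), with limma adjusted p-values of 0.194, 0.202 and 0.186. Without active week 12 replicate 3, whose marker sums stood apart, these became -1.11, -1.17 and -1.06.

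The other type VI chains were low. Col6a4 was 15.5, 9.27 and 250 in active tumours of week 12 and at most 36.4 elsewhere, and Col6a5 was 18.2, 0 and 195 there and at most 15.9 elsewhere. The high value of both was that of active week 12 replicate 3. Col6a6 ran from 23 to 292, with the lowest value in sedentary week 18 replicate 1. Between weeks in active tumours all 6 type VI chains had log2 fold changes below 0, with a median of -1.37, where all genes had a median of -0.03. Those of Col6a4 and Col6a5, -1.24 ± 1.21 (SE) and -1.60 ± 1.68 (SE), leaned on active week 12 replicate 3. At week 18 active tumours held 36.4, 9.62 and 7.13 of Col6a4 and 4.16, 2.62 and 6.24 of Col6a5.

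**Figure D3:**
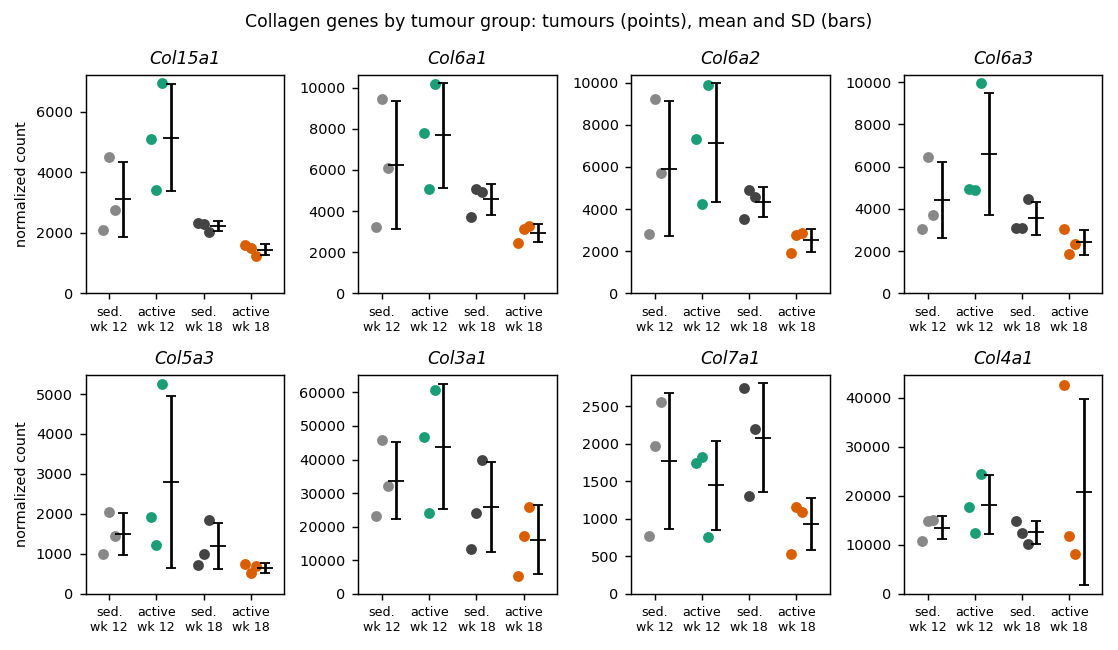
Points are the normalized counts of single tumours in the 4 groups, and bars give the mean and SD of 3. Active tumours of week 18 sit below the active week 12 and sedentary week 18 tumours for Col6a1 and Col6a2, sedentary week 12 replicate 1 (3203 and 2828) lies within their range, and Col4a1 is highest in active week 18 replicate 1.

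Col7a1 encodes the anchoring fibrils that hold epithelium to its stroma. For Col7a1, sedentary tumours held 774, 1973 and 2560 at week 12 and 2740, 1307 and 2204 at week 18. Active tumours held 1746, 1830 and 761 at week 12 and 527, 1155 and 1095 at week 18. At week 18 the active tumours lay below the sedentary ones, with a log2 fold change of -1.19 ± 0.43 (SE) and a limma adjusted p of 0.824. Col9a1, Col9a2 and Col9a3 encode type IX collagen, which decorates fibrils and is best known from cartilage. Col9a1 values were 6936, 5998 and 6707 in sedentary tumours of week 12 and 3866, 13870 and 1639 in active tumours of week 12. At week 18 they were 3901, 3257 and 5929 in sedentary and 6824, 4088 and 7403 in active tumours. Sedentary tumours of week 18 lay below those of week 12 by a narrow margin, 5929 against 5998. Col9a1 was the 1 member with such a separation in sedentary tumours, where 5.95% of all genes were wholly lower and 4.34% wholly higher. Col9a2 ran from 558 to 4848 and Col9a3 from 473 to 5550, each lowest in active week 12 replicate 3 and highest in sedentary week 18 replicate 1.

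Between weeks, active tumours had lower mean log2 values at week 18 in 29 of 43 collagen genes, against 52.4% of all genes. Median log2 fold changes were -0.59 for fibrillar, -0.13 for basement membrane and -0.45 for other collagens, beside -0.03 for all genes. The groups did not overlap for 8 members, all lower at week 18: Col1a2, Col5a2, Col5a3, Col6a1, Col6a2, Col6a3, Col15a1 and Col28a1. Among all genes 12.7% were wholly lower and 12.1% wholly higher in this comparison. In sedentary tumours the medians were -0.30, -0.11 and -0.28, beside -0.02 for all genes, with 10 of 11 fibrillar collagens below 0, against 53% of all genes. Among members above 0 in active tumours, the smallest p-values were those of Col25a1, a transmembrane collagen known from neurons, at 1.67 ± 1.02 (SE) and Col9a3 at 1.09 ± 0.67 (SE). Without active week 12 replicate 3 they were 0.39 and 0.41, without active week 18 replicate 1 they were 1.00 and 0.71, and without active week 12 replicate 2 they were 2.55 and 1.69. In sedentary tumours they were those of Col26a1 at 1.41 ± 1.63 (SE) and Col23a1 at 0.99 ± 1.02 (SE). Leaving out 1 sedentary tumour moved Col26a1 to between -0.35, without week 18 replicate 1, and 2.64, without week 12 replicate 2. It moved Col23a1 to between 0.14, without week 12 replicate 1, and 1.82, without week 18 replicate 3. Over both activities, 6 tumours against 6, no member had groups without overlap, against 0.343% of all genes wholly higher and 0.577% wholly lower. Week cannot be told apart from any batch in which the tumours of a week were handled.

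DESeq2 on the recovered reads called Col15a1, Col5a3, Col6a3, Col6a1 and Col6a2 lower at week 18 in active tumours, where it called 5.91% of all genes lower. Its log2 fold changes were -1.83, -2.10, -1.45, -1.39 and -1.51, with adjusted p-values of 8.78e-06, 0.00384, 0.00486, 0.00899 and 0.0116. The same 5 were called over both activities, where DESeq2 called 2.69% of all genes lower, with adjusted p-values of 0.000227, 0.0379, 0.0321, 0.0271 and 0.0362. That comparison averages the week effects of sedentary and active tumours, so it includes the effect in active tumours. In sedentary tumours alone DESeq2 called 0 members, with 0.411% of all genes called. There limma gave these genes log2 fold changes of -0.42, -0.37, -0.26, -0.33 and -0.30. In limma Col5a3 was -1.85 ± 0.54 (SE) in active tumours, adjusted p 0.194, and -1.25 without active week 12 replicate 3. The summed fibroblast markers were 6421 to 36540 in active tumours of week 12 and 2319 to 7212 in those of week 18. Endothelial sums were 5129 to 18218 and 2801 to 4914, and adipocyte sums 9453 to 218322 and 1395 to 3540. Pericyte and smooth muscle sums were 12161 to 21454 and 14594 to 19388, and macrophage sums 7821 to 11691 and 7864 to 9429. Their part in the collagen values was not tested.

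**Figure D4:**
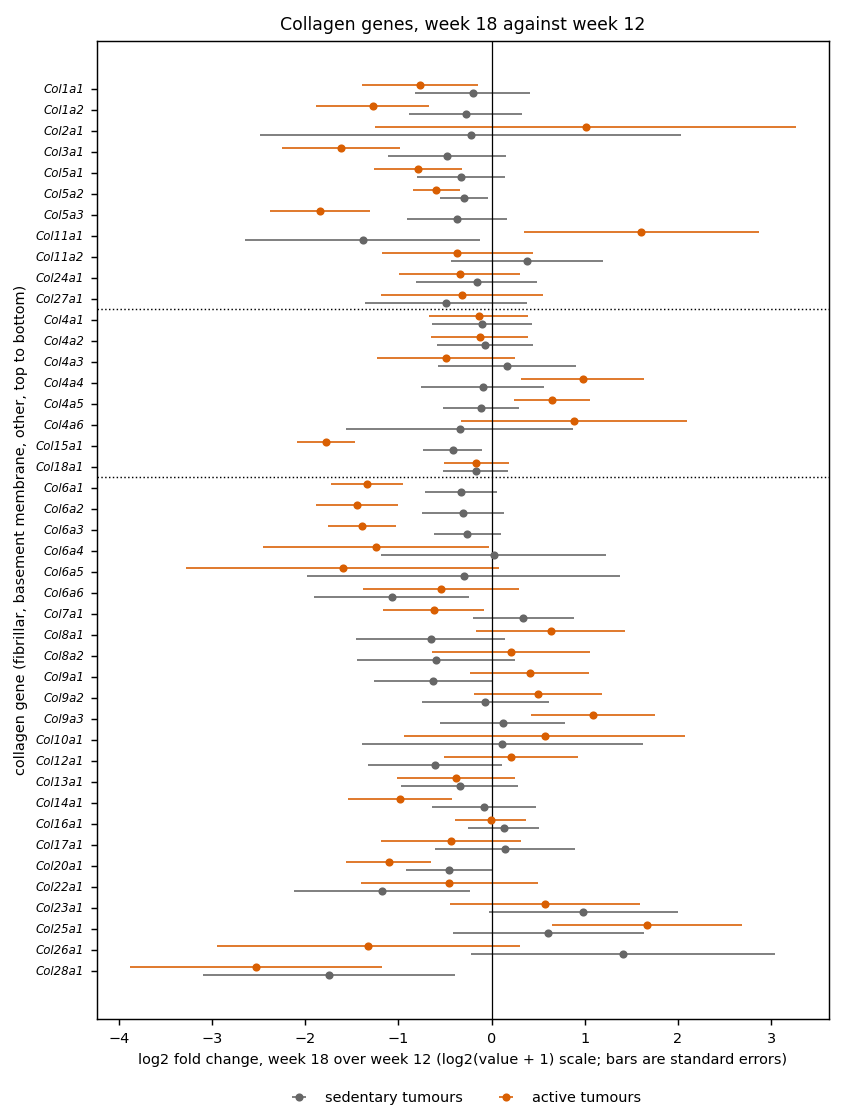
Points are the log2 fold changes of week 18 over week 12 for each collagen gene, in sedentary and in active tumours, and bars are standard errors. Col15a1 in active tumours, at -1.78 with an SE of 0.31, is the member farthest from 0 relative to its error.

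The activity effects of the weeks differed by a median of -0.46 in fibrillar, -0.01 in basement membrane and -0.27 in other collagens, beside -0.02 for all genes. Type VI chains had a median difference of -1.14, with 5 of 6 below 0, against 51.5% of all genes. Of these, Col6a4 and Col6a5 were 250 and 195 in active week 12 replicate 3, and at most 36.4 and 18.2 in the other tumours. With 1 tumour left out, the differences of Col6a1, Col6a2 and Col6a3 came as near 0 as -0.60, -0.69 and -0.80. No member passed, and Col15a1 had the smallest p. The comparisons between weeks and between activities share tumours.

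Chains that join in 1 protein were compared as ratios of reads per kilobase. Col4a1 over Col4a2 was the steadiest pair, from 1.32 to 1.53, while the levels of these genes spanned 5.27-fold and 4.94-fold. Col6a1 over Col6a2 ran from 1.16 to 1.46. Col1a1 over Col1a2 ran from 0.71 to 1.28 with a median of 1.00, although the type I protein mostly holds more of the first chain. Col5a1 over Col5a2 ran from 0.34 to 1.06. Col9a1 over Col9a2 ran from 0.61 to 3.91, and Col11a1 over Col11a2 from 1.75 to 199. Active week 18 replicate 1 had the highest ratio for Col1a1 over Col1a2, Col4a1 over Col4a2, Col6a1 over Col6a2, Col6a3 over Col6a1, Col8a1 over Col8a2 and Col9a1 over Col9a2. The same tumour had the lowest ratio for Col5a1 over Col5a2, at 0.34, and neither end for Col11a1 over Col11a2, at 28.3.

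**Figure D5:**
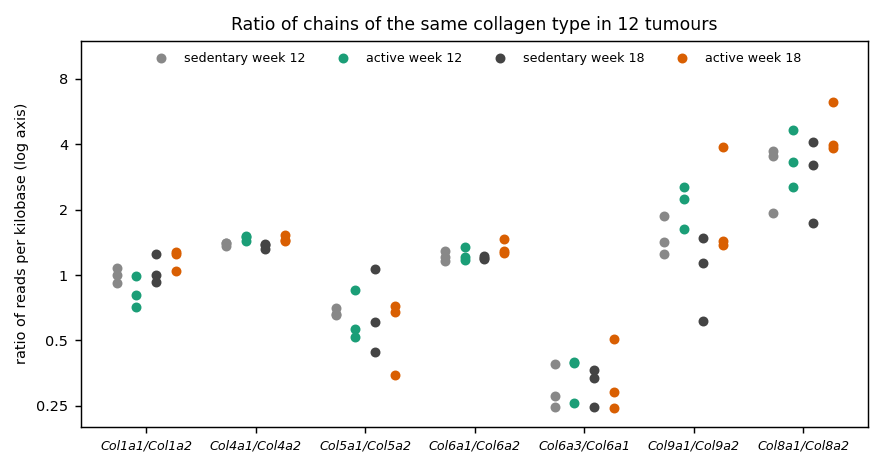
Points are single tumours, and the log axis gives the ratio of reads per kilobase of 2 chains of the same collagen type. Col4a1 over Col4a2 stays between 1.32 and 1.53, while Col9a1 over Col9a2 runs from 0.61 to 3.91.

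Genes that make, bind or break down collagen did not pass the test in any comparison. Of 29 synthesis and crosslinking genes, 7 were below 0 for activity at week 18 with a median of 0.19, against 48.9% of all genes. Between weeks 23 were below 0 in sedentary and 11 in active tumours. Active week 18 replicate 1 was the highest tumour for 10 of the 29 and the lowest for 4, and sedentary week 18 replicate 1 the lowest for 11. Of all genes with a mean of at least 10, these shares were 18.1%, 16.8% and 17.3% in that order. The smallest p for activity at week 18 was that of Pcolce2, a procollagen processing enhancer, at -1.85 ± 0.57 (SE). Between weeks in active tumours the smallest p was that of Ppib, a prolyl isomerase that aids collagen folding, at 0.66 ± 0.16 (SE) with a limma adjusted p of 0.176. Of 18 breakdown genes, Timp4, a metalloproteinase inhibitor, stood at -3.78 ± 0.93 (SE) in that comparison, limma adjusted p 0.178, with 423 in active week 12 replicate 3 and at most 42.8 in the others. Mmp8, a neutrophil collagenase, had the smallest p of that list for activity at week 18, at 2.29 ± 0.83 (SE), and reached 30.2 in active week 18 replicate 1.

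Among 8 measured collagen receptors, Itga1, the integrin chain that binds type IV collagen, was -0.95 ± 0.34 (SE) between weeks in active tumours. Its limma adjusted p was 0.233, and its highest value was 1788, in active week 12 replicate 3. Of 13 fibril partners, 11 were below 0 there with a median of -0.75, against 52.4% of all genes, and 12 were below 0 in sedentary tumours with a median of -0.51, against 53%. Active week 12 replicate 3 was the highest tumour for 6 of the 13 and sedentary week 18 replicate 1 the lowest for 8. These tumours had the highest and the second lowest fibroblast sum, and the part of such cells was not tested. Dcn and Lum are counted both as fibril partners and as fibroblast markers, so the partner list and that sum share genes. Dcn, the small proteoglycan decorin, had the smallest p in active tumours at -2.45 ± 0.96 (SE). Of 16 basement membrane partners, 12 were below 0 between weeks in active tumours, with a median of -0.35, and 12 in sedentary tumours, with a median of -0.11. Active week 12 replicate 3 was the highest tumour for 6 of the 16 and active week 18 replicate 1 for 7. Of all genes with a mean of at least 10, these tumours were highest for 25.1% and 18.1%. Lama2, a laminin chain of muscle, nerve and stroma, was -2.45 ± 0.57 (SE) between weeks in active tumours, limma adjusted p 0.176. Active tumours had Lama2 values of 1644, 538 and 2344 at week 12, highest in replicate 3, and 160, 324 and 243 at week 18. For activity at week 18 Lama2 was -1.83 ± 0.31 (SE), limma adjusted p 0.547.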

How the data were processed

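RNA of 12 mammary tumours was sequenced from stranded mRNA libraries after TRIzol extraction, per the labels' protocols. The 9 hematopoietic stem cell libraries were not used here. The authors deposited a normalized signal per gene, and every value was a whole multiple of 1 step per library within 0.001 reads, for 100% of values, so whole reads were recovered. The step of sedentary week 18 replicate 3 was 0.991, too near 1 for a formal check. Steps matched 1 set of size factors over the 12 tumours, so weeks could be compared. The build was mm10, per the submitters' processing notes. Aligner, counter and annotation are not given in the sources used here. The authors also deposited log2 fold changes, p-values and a score (the test statistic) per gene, and the test behind them is not given in the sources used here.

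limma 3.58.1 (R 4.3.3) was fitted to log2(value + 1), keeping each gene whose mean reached 1 in any fitted group, with Benjamini-Hochberg adjustment across the genes tested. Fold changes on this scale understate the change of low genes. Activity was tested within each week, and the other comparisons in a fit of 12 tumours. edgeR 4.0.16 and DESeq2 1.42.0 on the recovered reads were alternatives, as were other pseudocounts, filters and scalings, limma-voom, a replicate block and leaving out each tumour. Per-kilobase levels used GENCODE transcript lengths. Scripts were tested on simulated data: of 200 genes changed by 3 on the log2 scale, 70% were recovered for activity at week 12 and 90% for weeks over both activities. Among the genes left unchanged, 10 and 12 were called in that order.

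Members named are, per class, the 4 with the highest level per kilobase, per comparison the 2 with the smallest p in each direction, and the type IV and VI chains. Genes named beyond that rule, such as Col2a1, Col5a2, Col5a3, Col7a1 and Col28a1, were chosen after their values were seen. Members and gene lists were chosen with earlier results of these data known. Deviations of same-numbered tumours from their group means correlated at 0.164, 0.159 and 0.139 between the activities at week 18, so these numbers were treated as pairs in the blocked fit. In the other comparisons these correlations ran from -0.144 to 0.0914, none above 0.1, and the blocked fit was run there too as an alternative.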

Additional observations from a re-analysis of the deposited data

How the results depend on the processing

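All genes called, not collagen genes, moved most between settings. For activity at week 12 limma called 99 genes, DESeq2 208, limma-voom 56, the fit of 12 tumours 9 and the replicate block 0, and 9 to 71 without 1 tumour, the fewest without sedentary replicate 3. For activity at week 18 the counts were 0 in limma, 5 with a pseudocount of 0.1, 1 with no filter, 52 in DESeq2, 1 at a threshold of 0.1, and 0 to 5 without 1 tumour. For the difference between these effects they were 2, 0 in edgeR and voom, 174 in DESeq2, 69 with the replicate block, and 0 to 23 without 1 tumour, the most without active week 18 replicate 1. Between weeks in sedentary tumours they were 1, 31 with a pseudocount of 10, 79 in DESeq2, 0 in edgeR, voom and the replicate block, and 1 to 9 without 1 tumour. In active tumours they were 3, 6 and 0 with pseudocounts of 0.1 and 10, 1681 in DESeq2, 7 at a threshold of 0.1, 0 in edgeR, voom and the replicate block, and 0 to 87 without 1 tumour, the most without active week 12 replicate 2. Over both they were 1, 721 in DESeq2, 4 at a threshold of 0.1, 0 in edgeR, voom and the replicate block, and 0 to 10 without 1 tumour. The cause was not tested.

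Collagen genes called were 0 throughout, except 5 in DESeq2 between weeks in active tumours, 5 in DESeq2 over both activities, and 0 to 1 without 1 tumour in active tumours. The replicate block changed no collagen call. For activity at week 18 the basement membrane median was 0.31, -0.28 with the replicate block without both replicates 1 (chosen after seeing the data), and -0.32 to 0.51 without 1 tumour, the lowest without active replicate 1. With type IV alone the difference between effects was 0.37, and the week effect in active tumours 0.26. For all basement membrane collagens the median of that week effect was 0.22 in edgeR, against -0.13 in limma.

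Without 1 tumour, medians of fibrillar, basement membrane and other collagens ran from -0.13 to 0.27, 0.018 to 0.38 and -0.56 to -0.011 for activity at week 12. At week 18 fibrillar ran from -0.66 to -0.08 and other from -0.50 to -0.057. For the difference they ran from -0.69 to -0.20, -0.54 to 0.43 and -0.51 to 0.15. Between weeks in sedentary tumours they ran from -0.52 to -0.07, -0.28 to -0.02 and -0.48 to 0.016, in active tumours from -1.04 to -0.53, -0.66 to 0.34 and -0.72 to -0.25, and over both from -0.69 to -0.35, -0.37 to 0.13 and -0.44 to -0.13. Between weeks in sedentary tumours Col26a1 ran from -0.35 to 2.64 and Col28a1 from -2.90 to 0.13, and both changed sign without sedentary week 18 replicate 1. No test of small collagen differences at this spread was run.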
